A study of Mus musculus with 4 samples.

Results

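The cytochrome P450 genes of families 1 to 3 and of family 17 were followed in livers of mice that lacked the selenocysteine tRNA gene, Trsp, or carried mutant copies of it. Members were the genes whose annotated symbol named a single-letter subfamily of families 1, 2 or 3, or was Cyp17a1, on probes annotated with 1 gene. This gave 34 genes, read by 48 probes, of 9285 genes in all. Cyp3a41a, whose symbol ends in a letter, fell outside this rule, as did 3 probes annotated with 2 P450 genes each. All animals were males, 7 to 8 weeks of age, on a B6/FVB background and a diet sufficient in selenium. In the DTrsp line the liver had lost Trsp. The A34 line bore a mutant Trsp transgene (T34 changed to A34) in 2 copies. The G37L and G37H lines bore another mutant (A37 changed to G37) in 2 and 16 copies. Each mutant was compared on 2-colour arrays with wild-type littermates, the wild type labelled with Cy3 and the mutant with Cy5. The labels used here name neither the promoter or recombinase behind the liver deletion nor whether the transgenic livers kept their own Trsp.

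The deposited table holds 1 log ratio per probe and line, averaged by the authors over 3 animals in G37H and over 4 in each other line. No SD between animals, no interval and no p-value can be given, so no difference below is set against the spread between animals. Values are read as log2 of mutant over wild type. That direction is likely rather than stated, since it rests on the dyes named in the labels, and a turned ratio would reverse every sign. A value of 1 is a 2-fold higher level in the mutant and -1 a 2-fold lower one. Probes of 1 gene were averaged. The only error these values hold is the gap between probes of a gene, given below as an SD between probes, which covers the probes and not the animals. Over the 2414 genes with several probes, the pooled SD between probes was 0.49 in DTrsp and 0.35 in A34, then 0.37 in G37L and 0.39 in G37H. The medians over all genes were 0.16, 0.07, -0.11 and -0.11 in the same order, and changes are also given relative to them where this matters. A ratio holds no level, so the liver label was not checked against levels of marker genes, and genes are compared here by ratio only.

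Cytochrome P450 enzymes are haem proteins that insert oxygen into small molecules. Those of families 1 to 3 are abundant in hepatocytes and oxidise drugs, toxins, steroids, bile acids, fatty acids and retinoids, with electrons handed over by P450 oxidoreductase and cytochrome b5. Their genes are controlled by nuclear receptors such as CAR (Nr1i3) and PXR (Nr1i2), by the aryl hydrocarbon receptor AHR, and in part by the sex-dependent pattern of growth hormone. Family 17 has a single gene, Cyp17a1, for a steroid hydroxylase and lyase.

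The P450 genes had no common direction across the 4 lines. In DTrsp, 4 of the 34 were at least 2-fold higher (11.8%, against 3.27% of all genes) and 2 at least 2-fold lower (5.88%, against 1.62%). In A34, 3 were at least 2-fold higher (8.82%, against 1.40%) and 0 at least 2-fold lower, against 0.452% of all genes. With A34 centred on its overall median the split was 1 higher, Cyp2a5, and 1 lower, Cyp2b10, and with that column scaled to the spread of DTrsp it was 5 and 3. In G37L, 3 were at least 2-fold higher (8.82%, against 2.51%) and 4 at least 2-fold lower (11.8%, against 3.96%), or 3 and 1 relative to the median of all genes. In G37H, 3 were at least 2-fold higher (8.82%, against 2.78%) and 1 at least 2-fold lower (2.94%, against 3.10%), or 4 and 0 relative to the median of all genes. The lowered share in G37H is near that of all genes. If the logarithms were natural ones, higher and lower members would number 9 and 2 in DTrsp and 5 and 3 in A34. In G37L they would number 4 and 11, and in G37H 6 and 1. Shares of all genes are not given for the centred, scaled or natural-log counts, so those counts have nothing to be read against. In all, 14 members passed 2-fold in at least 1 line (41.2%, against 15.6% of all genes), and the other 20 stayed within it in all 4. Cyp2a5 alone was at least 2-fold higher in 1 line and lower in another, which 0.808% of all genes were.

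The middle of the group also differed between lines. The median log2 ratio of the 34 genes was 0.41 in DTrsp and 0.21 in A34, -0.20 in G37L and 0.28 in G37H. Relative to the median of all genes they were 0.25, 0.14, -0.09 and 0.40. In G37H, 27 of the 34 lay above 0 (79.4%), against 38.4% of all genes, while in G37L 13 did (38.2%), against 39.4%. These are bulk livers, in which fewer hepatocytes and less RNA per hepatocyte cannot be told apart. Beside them, the 7 measured hepatocyte markers, such as albumin, had medians of 0.67 in DTrsp and 0.37 in A34, 0.50 in G37L and 0.47 in G37H. Their part in the P450 values was not tested.

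**Figure D1:**
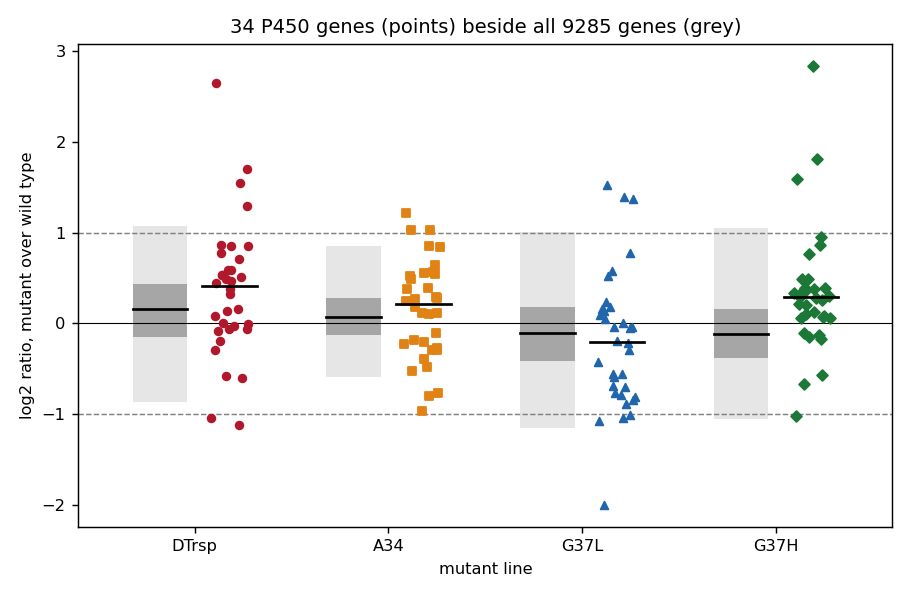
Log2 ratio of mutant over wild type (vertical axis) in each mutant line (horizontal axis). Coloured points are the 34 P450 genes and black lines are medians. Grey boxes span the central 50% and, in lighter grey, the central 95% of all 9285 genes. Dashed lines mark 2-fold. The P450 median lies above that of all genes in DTrsp, A34 and G37H and below it in G37L.

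**Figure D2:**
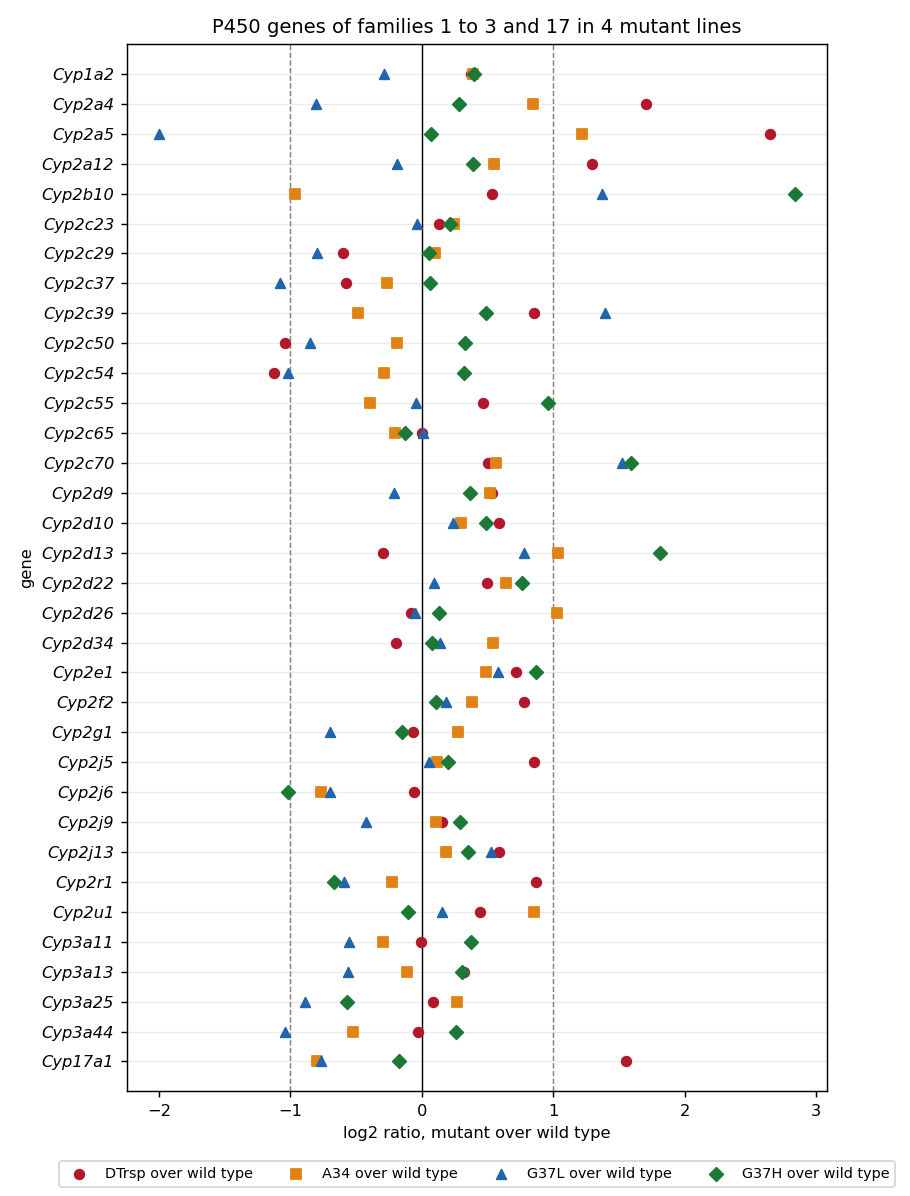
Log2 ratio of mutant over wild type (horizontal axis) of each P450 gene (vertical axis), 1 point per line. Dashed lines mark 2-fold. Cyp2a5 and Cyp2b10 have the widest ranges over the 4 lines, from -2.001 to 2.65 and from -0.97 to 2.84.

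The 3 Cyp2a genes were all at least 2-fold higher in DTrsp, and Cyp2a5 had the highest value of the 34 genes there and the lowest in G37L. Cyp2a5 encodes the hepatic coumarin hydroxylase, which also oxidises nicotine. Its log2 ratio was 2.65 in DTrsp and 1.22 in A34, -2.001 in G37L and 0.07 in G37H. This put the transcript at 6.26-fold the wild-type level in DTrsp and 4.00-fold below it in G37L, while G37H lay at 1.05-fold the wild-type level. Among all 9285 genes Cyp2a5 ranked 9th from the top in DTrsp and 17th from the bottom in G37L. The SD between its 3 probes was 0.65 in DTrsp and 0.53 in A34, 0.09 in G37L and 0.16 in G37H. Every probe was past 2-fold in DTrsp (lowest 1.91) and in G37L (highest -1.92), and 2 of 3 were in A34.

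Cyp2a4 encodes a steroid hydroxylase nearly identical to Cyp2a5. On its single probe the values were 1.70 in DTrsp and 0.85 in A34, then -0.81 in G37L and 0.28 in G37H. The order of the 4 lines was the same as for Cyp2a5, and DTrsp was the only line past 2-fold. A further probe annotated with both genes, which is no member, gave 1.55, 2.13, -1.66 and -0.14 in the same order. Probes may read either gene, so their values are not separate evidence. Cyp2a12, a steroid hydroxylase less close in sequence, was at 1.29 in DTrsp and 0.55 in A34, -0.19 in G37L and 0.39 in G37H. Its DTrsp value rested on probes at 0.53 and 2.06, an SD between probes of 1.08.

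The sequences before the start sites show how close the first pair is. Each run is the 250 bases before the start of the gene, 5′ to 3′ on the gene's strand, from RefSeq on GRCm38.p6, and capitals mark the bases that differ between Cyp2a4 and Cyp2a5 where they align. Of 249 aligned bases, 245 were identical and 4 differed (98.4% identity). Against Cyp2a12, 134 of the 213 bases of Cyp2a5 that aligned were identical (62.9%). Cyp2a4 lies at chr7:26306942-26307191 and Cyp2a5 at chr7:26835089-26835338, both on the plus strand.
Cyp2a4: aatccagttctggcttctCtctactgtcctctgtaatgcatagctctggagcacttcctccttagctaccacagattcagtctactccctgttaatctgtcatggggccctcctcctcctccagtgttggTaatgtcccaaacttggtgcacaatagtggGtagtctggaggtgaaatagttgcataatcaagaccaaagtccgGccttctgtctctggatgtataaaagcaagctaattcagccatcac
Cyp2a5: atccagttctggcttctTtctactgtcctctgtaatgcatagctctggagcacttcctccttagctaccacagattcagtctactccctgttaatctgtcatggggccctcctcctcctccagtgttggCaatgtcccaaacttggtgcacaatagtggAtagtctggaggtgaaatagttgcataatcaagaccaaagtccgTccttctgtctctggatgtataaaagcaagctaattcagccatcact

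Cyp2b10, the phenobarbital-inducible P450 and the usual marker gene of CAR activity, had the highest value of the 34 genes in G37H. Its log2 ratio was 0.54 in DTrsp and -0.97 in A34, 1.37 in G37L and 2.84 in G37H. It was at 7.14-fold the wild-type level in G37H and 2.58-fold in G37L, and A34 lay just short of 2-fold lower, or past it at -1.04 relative to the median of all genes. In G37H it ranked 7th from the top of all genes. Its 3 probes were at 2.497, 2.81 and 3.21 in G37H and between 1.34 and 1.43 in G37L, so all were past 2-fold in both. In A34, 2 of the 3 were past 2-fold lower, at -1.30 and -1.26, and 1 was at -0.35. The decimals of the probe at -1.26 are those of an average over 3 arrays rather than 4. In DTrsp they ran from -0.01 to 0.98, with an SD between probes of 0.50.

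**Figure D3:**
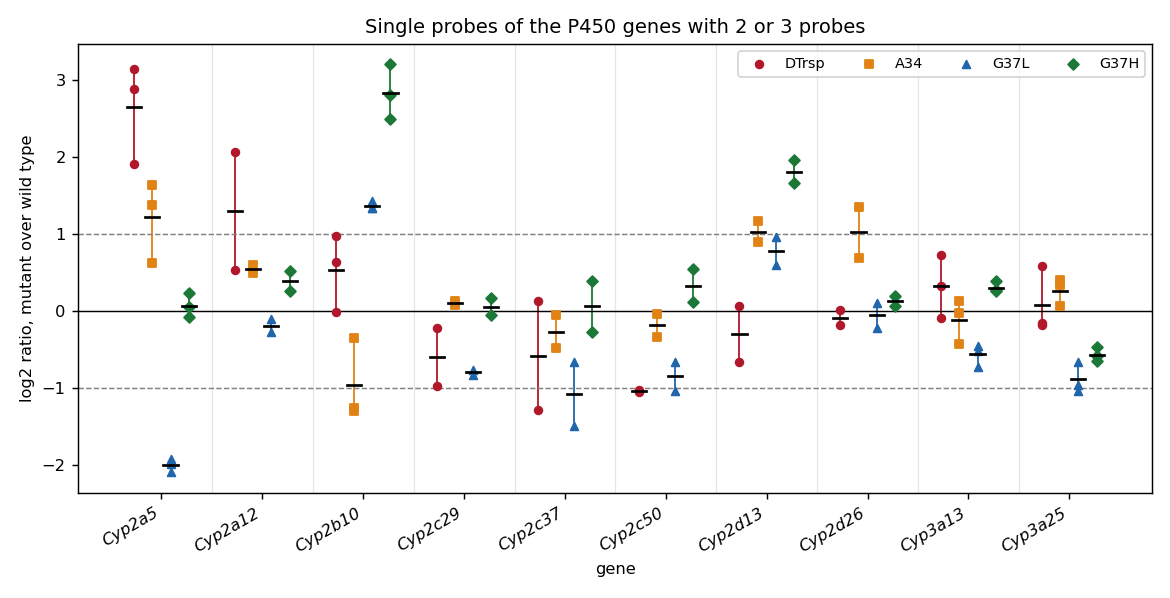
Log2 ratio of mutant over wild type (vertical axis) of single probes for the 10 P450 genes with 2 or 3 probes (horizontal axis). Points are probes, coloured bars their range and black bars their mean. Dashed lines mark 2-fold. The 3 probes of Cyp2a5 lie between -2.10 and -1.92 in G37L, and those of Cyp2b10 between 2.497 and 3.21 in G37H, while probes of Cyp2a12 and Cyp2c37 lie far apart in DTrsp.

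The region before the Cyp2b10 start, at chr7:25897408-25897657 on the plus strand, is shown because this gene had the highest value of the 34 in any line. Capitals mark the letters GCGTG, the core of the AHR element, on either strand.
Cyp2b10: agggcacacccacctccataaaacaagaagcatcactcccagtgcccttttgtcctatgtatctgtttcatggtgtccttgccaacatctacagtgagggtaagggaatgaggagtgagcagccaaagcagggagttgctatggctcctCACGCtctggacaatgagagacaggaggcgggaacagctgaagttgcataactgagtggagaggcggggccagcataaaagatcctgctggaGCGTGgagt
These letters were found 101 and 9 bases before the start. Over all 32851 RefSeq start regions of this length, 28.2% held them on either strand. The distal element through which CAR is known to act lies outside this window.

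The 9 Cyp2c genes, which encode epoxygenases and hydroxylases of fatty acids, retinoids and bile acids, split by gene, and are grouped here after their values were seen. A lower group held Cyp2c50, Cyp2c54, Cyp2c37 and Cyp2c29, close relatives that act on arachidonic acid and foreign compounds. Cyp2c54 was at -1.12 in DTrsp and -0.29 in A34, -1.02 in G37L and 0.32 in G37H. Cyp2c50 was at -1.04, -0.19, -0.85 and 0.33 in the same order. For both genes DTrsp and G37L lay lowest and G37H lay above 0. Cyp2c54 was at -0.90 in G37L relative to the median of all genes, short of 2-fold. The 2 probes of Cyp2c50 in DTrsp were at -1.05 and -1.03, an SD between probes of 0.01.

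Cyp2c37 was at -0.58 in DTrsp and -0.27 in A34, -1.08 in G37L and 0.06 in G37H. Its probes were at 0.13 and -1.29 in DTrsp and at -0.66 and -1.49 in G37L, so 1 of 2 was past 2-fold in each. Its G37L value was -0.96 relative to the median of all genes, short of 2-fold. Cyp2c29 was at -0.60, 0.10, -0.80 and 0.06, within 2-fold in every line. These genes are alike in sequence and their probes may read one another's transcripts.

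The start regions of Cyp2c37 and Cyp2c50, genes of the lower group with Cyp2c54 between them, are shown. They lie at chr19:39992174-39992423 and chr19:40089429-40089678, both on the plus strand, and capitals mark the aligned bases that differ. Of 242 aligned bases, 214 were identical (88.4%). Between Cyp2c29 and Cyp2c37 145 of 213 were (68.1%), and between Cyp2c29 and Cyp2c39, whose values differed in sign in DTrsp, A34 and G37L, 195 of 237 were (82.3%).
Cyp2c37: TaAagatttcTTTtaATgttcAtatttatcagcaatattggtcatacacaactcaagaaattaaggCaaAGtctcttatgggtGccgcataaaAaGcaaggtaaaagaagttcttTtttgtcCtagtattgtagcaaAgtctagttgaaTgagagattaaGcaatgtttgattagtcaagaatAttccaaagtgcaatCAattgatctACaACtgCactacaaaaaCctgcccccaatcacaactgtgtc
Cyp2c50: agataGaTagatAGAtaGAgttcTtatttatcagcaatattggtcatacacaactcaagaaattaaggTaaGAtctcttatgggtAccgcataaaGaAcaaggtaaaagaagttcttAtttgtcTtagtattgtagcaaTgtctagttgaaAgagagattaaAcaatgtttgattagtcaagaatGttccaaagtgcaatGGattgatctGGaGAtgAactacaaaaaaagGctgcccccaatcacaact

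A higher group held Cyp2c70 and Cyp2c39. Cyp2c70, which makes the muricholic bile acids of rodents, was at 0.50 in DTrsp and 0.57 in A34, 1.52 in G37L and 1.59 in G37H. Both G37 lines were past 2-fold and differed by 0.07. Cyp2c39, a retinoic acid hydroxylase, was at 0.85, -0.49, 1.39 and 0.49, past 2-fold in G37L alone. The remaining 3 genes, Cyp2c23, Cyp2c55 and Cyp2c65, lay within 2-fold in all 4 lines. Among them Cyp2c55, inducible by CAR and PXR ligands, was highest in G37H at 0.96, or 1.07 relative to the median of all genes. As a subfamily, 8 of 9 Cyp2c genes lay above 0 in G37H, with a median of 0.32, against 3 of 9 in G37L, with a median of -0.04. Of all genes 38.4% and 39.4% lay above 0 there, and relative to their median 8 and 5 of the 9 were above.

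Neighbours on a chromosome could differ widely. In the reference gene order Cyp2c37, Cyp2c54, Cyp2c50 and Cyp2c70 follow each other with 0 protein-coding genes between them, yet Cyp2c70 was at 1.52 in G37L and the other 3 between -1.08 and -0.85. Cyp2c29 and Cyp2c39 are likewise adjacent and lay at -0.80 and 1.39 in G37L. Along the other cluster, Cyp2g1, an olfactory P450, is the measured neighbour of Cyp2a5 with 0 protein-coding genes between. It was at -0.07 in DTrsp and -0.70 in G37L, against 2.65 and -2.001 for Cyp2a5. Cyp2g1 was read by 1 probe, and whether it was detected in these livers is not known, since intensities were not used.

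**Figure D4:**
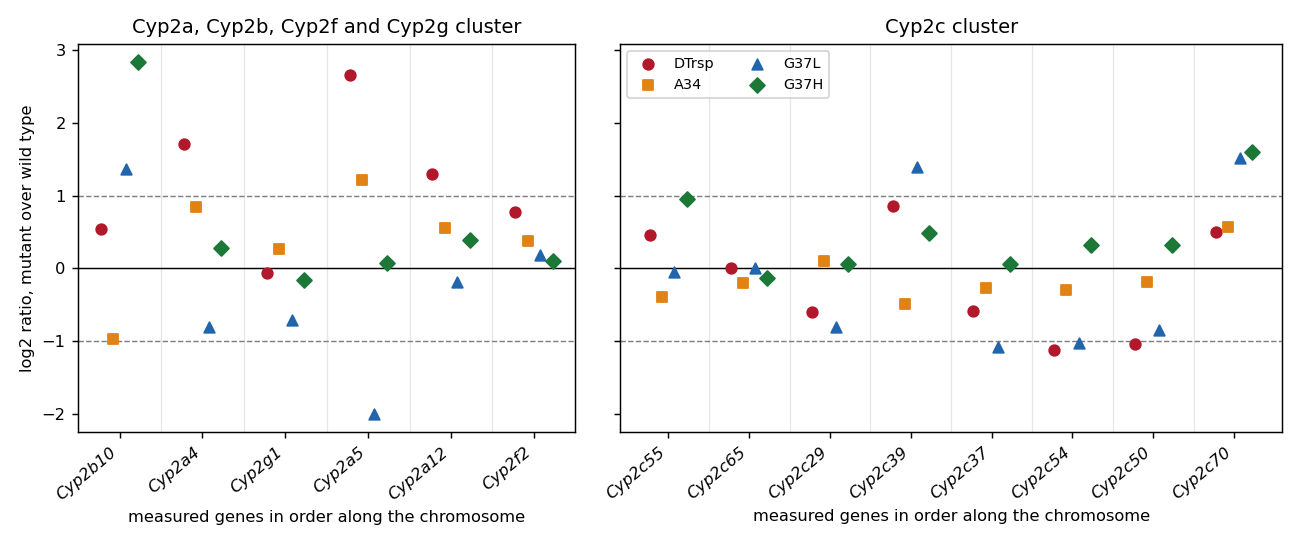
Log2 ratio of mutant over wild type (vertical axis) for measured P450 genes in their order along 2 gene clusters (horizontal axis, order only, not to scale). Each point is 1 line, and dashed lines mark 2-fold. In the Cyp2c cluster Cyp2c39 and Cyp2c70 lie above 1 in G37L while Cyp2c29, Cyp2c37, Cyp2c54 and Cyp2c50 lie between -1.08 and -0.80.

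The 6 Cyp2d genes lay above 0 throughout A34 and G37H. Medians were 0.20 in DTrsp and 0.59 in A34, 0.11 in G37L and 0.43 in G37H, with 3, 6, 4 and 6 of the 6 above 0, where 64.0%, 59.1%, 39.4% and 38.4% of all genes lay. Relative to the median of all genes 3, 6, 5 and 6 were above. Cyp2d13, whose annotated accession is that of a non-coding RNA, was the farthest from 0, at -0.30 in DTrsp and 1.03 in A34, 0.78 in G37L and 1.81 in G37H. Its probes in G37H were at 1.66 and 1.96. Cyp2d26, an abundant hepatic Cyp2d gene, was at -0.09, 1.03, -0.05 and 0.13. In A34 its probes were at 0.69 and 1.36. The A34 values of Cyp2d13 and Cyp2d26 were 0.96 and 0.95 relative to the median of all genes, both short of 2-fold. Cyp2d9, the male-predominant testosterone hydroxylase, stayed within 2-fold, at 0.53, 0.52, -0.22 and 0.37. The other 3, Cyp2d10, Cyp2d22 and Cyp2d34, lay between -0.20 and 0.76. The Cyp2d genes are close in sequence, and the same limit on their probes holds.

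The Cyp3a genes, which oxidise steroids and a large share of drugs, were all below 0 in G37L, and below the median of all genes, where 39.4% of all genes lay above 0. Cyp3a11, the main PXR target among them, was at -0.01 in DTrsp and -0.29 in A34, -0.56 in G37L and 0.38 in G37H. Cyp3a13 was at 0.32, -0.11, -0.56 and 0.30, and Cyp3a25 at 0.08, 0.27, -0.89 and -0.57. Cyp3a44, a female-predominant gene, was at -0.03, -0.53, -1.04 and 0.26 and alone among the 4 passed 2-fold, though its G37L value was -0.93 relative to the median of all genes. The decimals of its DTrsp and A34 values are those of averages over 3 arrays, and of its G37H value over 2. Those of its G37L value do not show how many arrays were averaged. The median of the 4 Cyp3a genes was -0.73 in G37L, which is -0.61 from the median of all genes, against 0.28 in G37H. Cyp3a41a, outside the member rule for its suffix, was at -0.10, -0.60, -0.79 and -0.02.

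Cyp17a1, which in mouse liver is transcribed more in females, was at 1.55 in DTrsp and -0.80 in A34, -0.77 in G37L and -0.17 in G37H. DTrsp was the only line above 0, at 2.93-fold the wild-type level on a single probe. The decimals of its DTrsp and A34 values are those of averages over 3 arrays rather than 4. Cyp1a2, the AHR target that oxidises caffeine and aromatic amines, stayed within 2-fold, at 0.38, 0.39, -0.29 and 0.39. Cyp2e1, the ethanol-oxidising P450, was at 0.71, 0.49, 0.58 and 0.86, within 2-fold in every line. Cyp2f2, a naphthalene-oxidising enzyme of periportal hepatocytes, was at 0.78, 0.38, 0.18 and 0.11.

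The 4 Cyp2j genes, epoxygenases of arachidonic acid, gave 1 value past 2-fold. Cyp2j6 was at -0.06 in DTrsp and -0.77 in A34, -0.70 in G37L and -1.02 in G37H. That last value was the lowest of the 34 genes in its line, and was -0.91 relative to the median of all genes, short of 2-fold. Its G37H decimals are those of an average over 2 arrays rather than 3. Cyp2j5, Cyp2j9 and Cyp2j13 lay between -0.42 and 0.85 over the 4 lines. Cyp2r1, a vitamin D hydroxylase, was at 0.87, -0.22, -0.59 and -0.67, and Cyp2u1, a fatty acid hydroxylase, at 0.44, 0.85, 0.15 and -0.11.

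The 2 lines of the G37 transgene, with 16 and 2 copies, were set against each other gene by gene. Copy number cannot be told apart here from any other difference between the 2 lines. G37H minus G37L was at least 1 for 9 of the 34 P450 genes, against 4.07% of all genes, and at most -1 for 0 of them, against 2.67%. The median difference was 0.58, against -0.01 over all genes. The 9 were Cyp2a5 at 2.07, Cyp2b10 at 1.47, Cyp2c54 at 1.33, Cyp3a44 at 1.30, Cyp2c50 at 1.18, Cyp2c37 at 1.14, Cyp2a4 at 1.09, Cyp2d13 at 1.03 and Cyp2c55 at 1.0002. Of these, Cyp2b10 and Cyp2d13 were above wild type in both lines. Cyp2c55 was at -0.04 in G37L and 0.96 in G37H. The other 6 were below wild type in G37L, from -2.001 to -0.81, and between 0.06 and 0.33 in G37H. Cyp2c39 lay farthest the other way at -0.91. The labels do not say whether lines shared wild-type animals, and the difference rests on 1 averaged value per line.

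**Figure D5:**
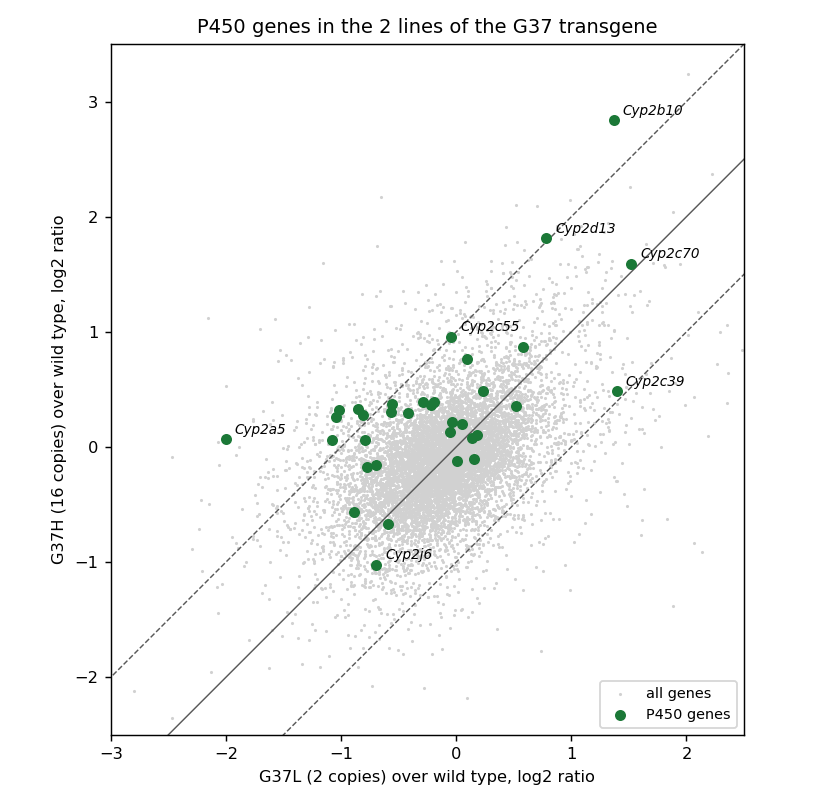
Log2 ratio in G37H (vertical axis) and in G37L (horizontal axis), both over wild type. Green points are the 34 P450 genes and grey points all genes, of which 19 lie outside the axes. The solid line marks equal values and the dashed lines a 2-fold difference. On or above the upper dashed line lie 9 P450 genes, Cyp2a5 and Cyp2b10 among them, and 0 lie below the lower one.

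The A34 and G37L lines carry 2 copies each of different mutants. The mutation cannot be told apart here from any other difference between these lines. G37L minus A34 was at least 1 for 2 members, Cyp2b10 at 2.34 and Cyp2c39 at 1.88, against 2.55% of all genes. It was at most -1 for 4, against 7.07%, namely Cyp2a5 at -3.22, Cyp2a4 at -1.65, Cyp3a25 at -1.15 and Cyp2d26 at -1.08. Set against the knockout, G37L minus DTrsp was at most -1 for 6 members, against 10.1% of all genes, and at least 1 for 2, against 3.96%. Cyp2a5 was the lowest at -4.65, followed by Cyp2a4 at -2.51 and Cyp17a1 at -2.32, and Cyp2d13 the highest at 1.08. A34 minus DTrsp was at least 1 for 2 members, against 4.48% of all genes, and at most -1 for 5, against 4.09%, with Cyp17a1 lowest at -2.35. G37H minus DTrsp was at least 1 for 5, against 4.26%, and at most -1 for 4, against 8.93%, from -2.58 for Cyp2a5 to 2.30 for Cyp2b10. G37H minus A34 was at least 1 for 3, against 2.72%, and at most -1 for 1, against 5.63%, from -1.15 for Cyp2a5 to 3.80 for Cyp2b10.

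P450 genes known as sex-biased in mouse liver differed in direction between genes in all 4 lines. Of 12 listed female-biased genes 6 were measured, 5 members and Cyp3a41a. In DTrsp 2 of the 6 were at least 2-fold higher, Cyp2a4 and Cyp17a1, against 3.27% of all genes, with a median of 0.69. In A34 0 passed 2-fold, or 1, Cyp2b10 at -1.04, relative to the median of all genes, and the median was -0.56, with Cyp2a4 above 0 and the other 5 below. In G37L 2 were at least 2-fold higher, Cyp2b10 and Cyp2c39, and 1 at least 2-fold lower, Cyp3a44, against 2.51% and 3.96% of all genes, with a median of -0.78. In G37H 1, Cyp2b10, was at least 2-fold higher, against 2.78% of all genes, and the median was 0.27. The male-biased Cyp2d9 and Cyp2u1 stayed within 2-fold in all 4 lines. Cyp7b1 and Cyp4a12a are also known as male-biased but are in neither sex-biased list, and were chosen here after their values were seen. They shared their sign in each line, below 0 in DTrsp and above 0 in the others. Cyp7b1, an oxysterol hydroxylase, passed 2-fold in every line, at -1.08 in DTrsp and 1.14 in A34, 1.25 in G37L and 1.26 in G37H. Cyp4a12a, a fatty acid hydroxylase, was at -0.10, 0.83, 0.79 and 0.90, the last past 2-fold at 1.01 relative to the median of all genes.

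Genes that serve or control P450 enzymes were read from lists. The shares of all genes past 2-fold, against which their counts are to be read, were 3.27% higher and 1.62% lower in DTrsp, 1.40% and 0.452% in A34, 2.51% and 3.96% in G37L, and 2.78% and 3.10% in G37H. Of 21 receptors and transcription factors 19 were measured, and 0 passed 2-fold in DTrsp or A34. In G37L 1 was at least 2-fold lower, the glucocorticoid receptor Nr3c1 at -1.001, which was -0.89 relative to the median of all genes. In G37H the small heterodimer partner Nr0b2, a repressor of nuclear receptors, was at -1.27 and the repressor Bcl6, which is linked to growth hormone signalling, at 2.10. CAR itself (Nr1i3, 3 probes) was at 0.39 in DTrsp and 0.38 in A34, -0.79 in G37L and 0.27 in G37H. PXR (Nr1i2) was at 0.17, 0.20, -0.47 and -0.19, and Ahr at 0.69, -0.86, -0.13 and -0.57. None of these 3 receptors passed 2-fold in any line.

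Other targets of CAR and PXR had most of their higher values in DTrsp. Of 17 listed CAR and PXR targets 11 were measured. In DTrsp 4 were at least 2-fold higher and 0 lower: the bile and conjugate exporters Abcc3 at 1.39 and Abcc2 at 1.22, and the retinal dehydrogenases Aldh1a1 at 1.13 and Aldh1a7 at 1.07. This is against 3.27% and 1.62% of all genes. Relative to the median of all genes 2 were left, with Aldh1a1 at 0.97 and Aldh1a7 at 0.92. In G37H, where Cyp2b10 was at 2.84, 0 of the 11 were at least 2-fold higher, against 2.78% of all genes, and the anion transporter Slco1a4 was at -1.04, or -0.92 relative to the median of all genes. Their median there was -0.09. In G37L it was -0.53, with the sulfate donor synthase Papss2 at -1.49. In A34 it was 0.19, with the glucuronosyltransferase Ugt1a1 at 1.21 and Aldh1a7 at -1.002. This list holds no P450 genes, of which the targets Cyp2c55 and Cyp3a11 were at 0.96 and 0.38 in G37H. The activity of CAR and PXR was not tested. Of 4 measured AHR targets, 1 passed 2-fold in DTrsp, the quinone reductase Nqo1 at 1.14 (0.98 relative to the median of all genes), and 1 in A34, Ugt1a6a at 1.39, against 3.27% and 1.40% of all genes higher there.

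Of 8 listed electron donors 5 were measured, and P450 oxidoreductase was not among them. In DTrsp the mitochondrial cytochrome b5, Cyb5b, was at 1.25 and the haem-binding Pgrmc1 at 1.11 (0.95 relative to the median of all genes), against 3.27% of all genes, with a median of 0.82, and in the other 3 lines 0 of 5 passed 2-fold. Of 11 measured haem genes, Alas1, the rate-limiting enzyme of haem synthesis, was at -0.32 in DTrsp and -0.35 in A34, then -1.52 in G37L and -0.55 in G37H. The haem oxygenase Hmox1 was at 4.03, 0.62, 1.27 and 1.09, and the biliverdin reductase Blvrb at 1.68, -0.53, -1.08 and -0.69. In G37L Blvra, the other biliverdin reductase, was at -1.19, and Blvrb there was -0.97 relative to the median of all genes.

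The 22 measured P450 genes outside the rule had medians of 0.24 in DTrsp and 0.11 in A34, -0.12 in G37L and 0.05 in G37H. Those at least 2-fold higher numbered 2, 1, 2 and 1, against 3.27%, 1.40%, 2.51% and 2.78% of all genes. Those at least 2-fold lower numbered 2, 2, 3 and 1, against 1.62%, 0.452%, 3.96% and 3.10%. Relative to the median of all genes 3 were higher in G37H, Cyp4a10 at 1.05 and Cyp4a12a at 1.01 among them. The fatty acid hydroxylase Cyp4a14 had the widest range among them, at 2.10, -3.10, -1.63 and -1.32. Cyp8b1, the sterol hydroxylase of cholic acid synthesis, was at 1.52, -0.74, -1.29 and -0.53.

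Markers of zones and of other cells were read beside these values. Acute phase genes, which hepatocytes transcribe in inflammation, were at least 2-fold higher for 16 of 16 in G37L, 7 in G37H, 3 in A34 and 2 in DTrsp, against 2.51%, 2.78%, 1.40% and 3.27% of all genes, with medians of 1.91, 0.82, 0.55 and 0.47. Relative to the median of all genes the counts were 16, 8, 2 and 0. Kupffer cell and macrophage markers (11 measured of 12) had medians of 0.74 in G37L, 0.80 in G37H, 0.70 in A34 and -0.09 in DTrsp. Individual values ran from -0.59 to 1.60. At least 2-fold higher were 4, 3, 3 and 0 of them in the same order, against the same shares of all genes. Relative to the median of all genes the counts were 4, 5, 3 and 0. Of the 8 measured pericentral genes, the zone where Cyp2a5, Cyp2e1, Cyp1a2 and Cyp2c29 are mostly transcribed, 1 was at least 2-fold higher in DTrsp (3.27% of all genes), the ammonium transporter Rhbg at 2.10. Lower by at least 2-fold were Oat at -1.34 in G37L, and Oat at -1.89 and the glutamine synthetase Glul at -1.21 in G37H, against 3.96% and 3.10% of all genes lower. Medians of the pericentral genes were 0.22 in DTrsp and -0.03 in A34, -0.36 in G37L and -0.22 in G37H. Those of the 8 measured periportal genes were 0.57, 0.27, 0.11 and 0.11 in the same order. Of these 8, 1 was at least 2-fold lower in A34 and in G37H, G6pc at -1.02 and -1.15. The shares of all genes lower there were 0.452% and 3.10%. Endothelial markers (8 of 8) had medians from 0.09 to 0.57 and stellate cell markers (7 of 8) from -0.34 to 0.14. Among the stellate cell markers Lrat was at -1.51 in G37L and Des at -1.45 in G37H, against 3.96% and 3.10% of all genes lower. Bile duct (2 of 7) and lymphocyte (1 of 9) markers were too few to describe. The part of inflammation, zone or cell makeup in the P450 values was not tested.

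Short motifs were then counted before the start sites. Of the 34 genes 26 had a RefSeq start region, and 250 bases before the start were searched on both strands. A P450 gene counted when any of its start regions matched, while the share of all was taken per region. The TATA core TATAAA was present for 15 of 26 (57.7%, against 12.4% of all start regions), among them Cyp2a4 and Cyp2a5 at 28 and 29 bases before the start. Others of the 15 lay farther away, such as Cyp3a11 at 234 and Cyp2c65 at 162 bases, or on the opposite strand, such as Cyp2d9. The half-site AGGTCA was present for 8 (30.8%, against 14.0%), among them Cyp2c29, Cyp2c39, Cyp2c70 and Cyp3a11. The letters CCAAT were present for 10 (38.5%, against 33.8%) and GCGTG for 3 (11.5%, against 28.2%). The antioxidant response core TGACNNNGC was found for 0 of 26, against 10.2% of all regions, which says only that these letters are not in this window. The TGAC of this core can overlap AGGTCA read on the other strand. A match is a description of sequence alone.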

How the data were processed

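Liver RNA of 4 mutant lines and wild-type littermates was hybridised to 2-colour arrays, from 15 µg of total RNA primed with oligo-dT, per the labels. The deposited values are log ratios averaged by the authors over animals, per the labels, read here as log2 values. The base of the logarithm, background correction, normalization, spot filters and any dye swap are not stated in the labels or headers. Among the 48 P450 probes, those with the decimals of an average over 1 array fewer than labelled numbered 4 (DTrsp), 4 (A34), 1 (G37L) and 3 (G37H). An average over still fewer arrays cannot be seen this way, so these counts do not rank the lines by arrays lost. Decimals that need the labelled number of arrays were held by 47.9%, 39.6%, 35.4% and 60.4% of these probes in the same order. Over all probes the shares were 35.4%, 34.6%, 29.3% and 42.1%. Intensities were not used here, and the number of arrays limits the precision.

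Of 15478 probes, 13047 were annotated with 1 gene, 110 with several, and 2321 were not listed. Names of 12984 probes came from the GRCm38.p6 gene table. Probes of a gene were averaged (Python 3.11.15, pandas 2.3.3), and a gene was counted at a log2 ratio of at least 1 from 0. Counting was tested on simulated data. Start regions were aligned with Biopython 1.88.

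Members, lists and alternatives were chosen with earlier results of these data known. Named were members past 2-fold in any line, the 5 highest and 5 lowest per line, the Cyp1a, Cyp2a, Cyp2b and Cyp3a genes, and Cyp17a1. Genes of other lists past 2-fold or among the 3 farthest from 0 were to be named, but only some of them are. Values are not given, for instance, for the acute phase genes, or for Cyp51, Cyp4b1 and Cyp4f39 among the P450 genes outside the rule. Other named genes were chosen after their values were seen.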

Additional observations from a re-analysis of the deposited data

Results flagged for a closer look

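Cyp2a5 was at least 2-fold higher than wild type in 2 lines and at least 2-fold lower in another, so that lines moved it in opposite directions. Its log2 ratio in DTrsp exceeded that in G37L by 4.65, and that in A34 exceeded G37L by 3.22. Among the 34 P450 genes it was the only one with such opposite values, and 75 of all 9285 genes had them (0.808%). All 3 of its probes were past 2-fold in both DTrsp and G37L. The difference between lines was not tested, since each line has 1 averaged value.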

How the results depend on the processing

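Each line has 1 averaged value per probe, so precision between animals is unknown and a count can turn on genes near the limit. No paired analysis was possible because the table holds no values of single animals, and for the same reason no animal could be left out. Leaving out Cyp17a1, or taking Cyp2a4 and Cyp2a5 as 1 gene, kept all 12 counts and medians within the limits set for a move, 1.5 times for counts and 0.1 for medians. No value past 2-fold changed sign. Of the 136 values of the members, 8 in 7 genes, all within 0.154 of 0, changed sign when columns were centred, among them Cyp2d26 in G37L from -0.05 to 0.06.

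At 1.5-fold, 11 members were higher and 3 lower in DTrsp, and 6 higher and 3 lower in A34. In G37L 4 were then higher and 12 lower, and in G37H 6 higher and 2 lower. At 3-fold, 2 were higher and 0 lower in DTrsp, and 0 higher and 0 lower in A34. In G37L 0 were then higher and 1 lower, and in G37H 3 higher and 0 lower. For the settings that follow, only counts and medians that moved past the limits set are given. Shares of all genes are not given at any of these settings, so the counts have nothing to be read against. With columns centred on the median of all genes, A34 had 1 higher and 1 lower, G37L 1 lower and G37H 0 lower. The medians then were 0.25 in DTrsp, -0.091 in G37L and 0.40 in G37H. With the median of probes in place of the mean, 1 was lower in A34. Members with 1 probe gave 2 higher and 1 lower in DTrsp, 0 higher in A34, 2 lower in G37L with a median of -0.042, and 1 higher in G37H, from fewer genes. With columns scaled to the spread of DTrsp, A34 had 5 higher and 3 lower. Read as natural logarithms, the values gave 9 higher in DTrsp with a median of 0.59, 5 higher and 3 lower in A34, 11 lower in G37L, and 6 higher in G37H with a median of 0.41. The 1.5-fold, 3-fold and natural-log counts move by construction, and the cause of the others was not tested. Of the 56 values of the 14 members past 2-fold, centring left 6 short of 2-fold and took 1 past it. Centring the other gene lists was chosen after seeing the data.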
